A study of Arabidopsis thaliana with 27 samples.

Results

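Acyl carrier proteins were followed in developing Arabidopsis thaliana seeds through the transcripts of 8 nuclear genes. The 8 loci were chosen by their names in the gene annotation and are 8 of the 33602 genes counted in each library. Of these, 5 encode plastid proteins (ACP1 to ACP5) and 3 encode mitochondrial proteins (mtACP1 to mtACP3). All 8 passed the filter on low counts that left 18897 genes for testing.

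The libraries came from a study of seeds that make hydroxy fatty acids. Each of 3 lines was sampled at 7-8, 9-10 and 11-12 days after flowering, with 3 replicate seed samples (A, B and C) per line and age and 27 RNA-seq libraries in all. The line fae1 lacks a working form of the seed enzyme that lengthens oleic acid to very-long-chain fatty acids. CL37 is fae1 carrying the castor fatty acid hydroxylase RcFAH12, expressed in seeds. PDAT is CL37 carrying in addition the castor phospholipid:diacylglycerol acyltransferase RcPDAT1a, also expressed in seeds. The fae1 mutation was therefore common to all 27 libraries, CL37 stands for a single hydroxylase line, and PDAT was built on that same line. Each sample was whole seed, with embryo, endosperm and seed coat together, from siliques collected over many plants of a line.

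Acyl carrier proteins hold a growing fatty acid on a phosphopantetheine arm, which is attached to a serine in the conserved motif Asp-Ser-Leu. In plastids the loaded carrier passes through the fatty acid synthase cycle, then serves desaturases, thioesterases that release fatty acids for export, and acyltransferases; plastid synthesis supplies the carbon chains of seed oil. In mitochondria the carrier serves a separate fatty acid synthase whose product is the precursor of lipoic acid, and in other eukaryotes it also binds LYR-motif proteins of respiratory complex I and of iron-sulphur cluster assembly. In Arabidopsis, ACP4 is known as the major isoform of leaf tissue, while ACP1, ACP2, ACP3 and ACP5 are the other plastid isoforms.

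The genes lie on 5 chromosomes (RefSeq, assembly TAIR10.1). ACP1 (AT3G05020) spans chr3:1391632-1392954 on the minus strand. ACP2 (AT1G54580) at chr1:20389347-20391147, plus strand, and ACP3 (AT1G54630) at chr1:20401357-20403166, minus strand, lie close together. ACP4 (AT4G25050) spans chr4:12870006-12871564 on the plus strand, and ACP5 (AT5G27200) spans chr5:9571185-9572213 on the plus strand. Of the mitochondrial genes, mtACP1 (AT2G44620) spans chr2:18414201-18415335 on the plus strand, mtACP2 (AT1G65290) chr1:24248727-24250436 on the minus strand, and mtACP3 (AT5G47630) chr5:19306139-19307094 on the plus strand. The plastid genes have 4 exons each, mtACP1 and mtACP2 have 2, and mtACP3 has 3.

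The coding sequence around the attachment serine shows which isoforms reads can tell apart and how far the plastid and mitochondrial families have diverged. The windows below hold 57 coding bases 5′ to 3′ on the coding strand, with the codons of Asp-Ser-Leu in capitals. They come from exons of TAIR10.1 between chr3:1391971-1392104 for ACP1, chr1:20390283-20390659 for ACP2, chr1:20401753-20402073 for ACP3, chr4:12870651-12870901 for ACP4 and chr1:24249193-24249249 for mtACP2; the windows of the plastid genes cross an intron and that of mtACP2 does not.
ACP1: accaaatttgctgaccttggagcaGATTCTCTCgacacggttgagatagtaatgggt
ACP2: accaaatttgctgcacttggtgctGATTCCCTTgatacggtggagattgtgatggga
ACP3: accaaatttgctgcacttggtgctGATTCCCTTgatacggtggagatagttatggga
ACP4: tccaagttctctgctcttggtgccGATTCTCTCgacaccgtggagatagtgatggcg
mtACP2: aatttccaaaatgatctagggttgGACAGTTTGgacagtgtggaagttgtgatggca
ACP2 and ACP3 shared 55 of the 57 bases, ACP1 and ACP5 shared 51, and ACP1 and ACP4 shared 44. Pairs of a plastid and a mitochondrial gene shared 21 to 35. All 5 plastid genes spelled the serine with a TCN codon and all 3 mitochondrial genes with an AGT or AGC codon. Over the whole coding sequence, 94.2% of aligned bases were identical between ACP2 and ACP3 (387 of 411), 77.6% between ACP1 and ACP5, and 67.7% between mtACP1 and mtACP2. Of the 50-base stretches of the whole ACP2 transcript, untranslated regions included, 1.87% recur in the ACP3 transcript. The read length and the handling of reads that match both genes are not given in the sources used here, so the division of reads between ACP2 and ACP3 is uncertain. ACP1, ACP5, mtACP2 and mtACP3 each overlap a neighbouring gene on the opposite strand (AT3G05010, AT5G27210, AT1G65280 and AT5G47635). Whether reads were counted by strand is not given in the sources used here, so values of these 4 genes may include or lose reads at the overlaps.

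Libraries held 4126510 to 22403287 counts assigned to genes. Members were covered by at least 50 reads in every library, the lowest being mtACP3, and ACP4 by 100 to 1502. The A libraries of fae1 at 7-8 and 9-10 days stood apart from the others of their groups. Transcripts of 5 seed-filling markers (cruciferins, an albumin and oleosins) summed to 213575 CPM (counts scaled to a common library total) in A of 7-8 days against 10948 and 24434 in B and C, and ACP4 in A was 40.5 CPM against 125 and 117. In A of 9-10 days ACP4 was 99.1 CPM against 40.2 and 42.6, and the seed-filling sum was 94459 CPM against 118214 and 141145. For the results that rest most on these libraries, values without them are given as well.

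The plastid isoforms other than ACP4 were more abundant per length than the mitochondrial ones in every group mean. By RefSeq exon length, the order of abundance was nearly the same in all lines and ages. The leading places depend on the gene lengths used, as given below. On the scale of CPM per kilobase of exon, the order was ACP1, ACP2, ACP5, ACP3, mtACP2, mtACP1, ACP4 and mtACP3 in 7 of the 9 groups. In CL37 and PDAT at 11-12 days, mtACP3 stood above ACP4, with overlapping replicates. ACP1, the leading isoform, had group means of 781 to 1090 CPM per kilobase, whereas ACP4 went from 80.9 ± 40.0 at 7-8 days to 15.8 ± 0.678 at 11-12 days in fae1 (SD, n = 3). Neighbours in this order whose replicates overlapped were ACP2 and ACP5 in fae1 at 7-8 and 9-10 days and in PDAT at 9-10 days, ACP5 and ACP3 at 11-12 days in every line, mtACP2 and mtACP1 in fae1 at 7-8 days and PDAT at 9-10 days, and mtACP1 and ACP4 in fae1 at 7-8 days. Replicates of ACP4 and mtACP3 also overlapped in fae1 at 11-12 days.

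Summed over the family, the plastid isoforms reached 1921 to 2727 CPM per kilobase by group and the mitochondrial isoforms 214 to 304. The ratio of plastid to mitochondrial level was lowest in CL37 at 11-12 days (7.45 ± 1.04) and highest in PDAT at 9-10 days (10.5 ± 0.357). As a share of all counts in the library, without scaling, the plastid genes at 7-8 days made up 0.276% ± 0.0793 in fae1, 0.268% ± 0.0175 for CL37 and 0.249% ± 0.0236 for PDAT. At 11-12 days these shares were 0.131% ± 0.0184, 0.133% ± 0.0214 and 0.160% ± 0.0106.

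**Figure D1:**
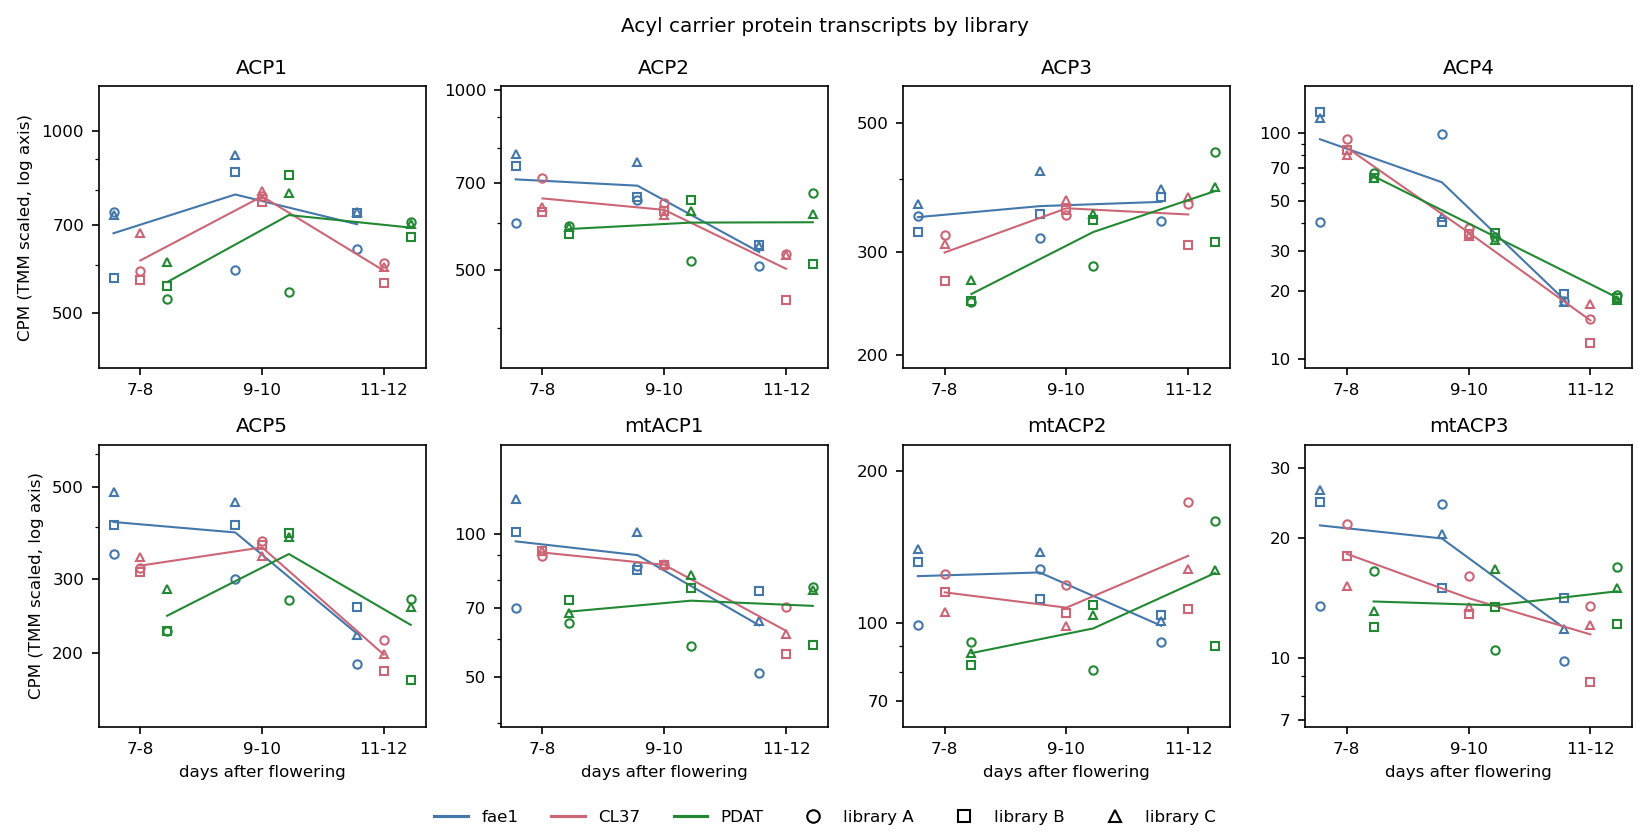
Level of each acyl carrier protein gene in TMM-scaled CPM (log axis) by age in days after flowering; symbols are single libraries and lines join the group means of fae1, CL37 and PDAT. ACP4 stands out by its fall with age in all 3 lines, with the A libraries of fae1 at 7-8 and 9-10 days away from their groups.

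Isoform shares were computed in each library as a gene's counts per exon length over the sum of its family, so they do not depend on how libraries were scaled. With RefSeq exon lengths, ACP1 held the largest plastid share in every library and ACP4 the smallest. With coding length the mean share at 7-8 days was larger for ACP2 than for ACP1, at 32.4% against 31.0% in fae1, 34.1% against 31.4% in CL37 and 35.0% against 33.4% in PDAT. The shares that follow use RefSeq exon lengths. ACP1 took 31.3% to 41.3% of the plastid total over the 9 libraries at 7-8 days (median 37.9%), 35.8% to 42.9% at 9-10 days (median 41.4%) and 40.1% to 46.9% at 11-12 days (median 44.1%). ACP2, second by group mean, stayed between 23.4% and 30.3% throughout, with medians of 28.3%, 24.1% and 25.6% at the 3 ages.

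ACP4, the leaf isoform, was a minor seed isoform whose share was smaller in older seeds. In fae1 its share was 1.41%, 4.22% and 3.43% (A, B, C) at 7-8 days, 3.74%, 1.24% and 1.18% at 9-10 days, and 0.789%, 0.727% and 0.685% at 11-12 days. In CL37 the shares were 3.43%, 3.33% and 2.86%, then 1.25%, 1.20% and 1.17%, then 0.642%, 0.575% and 0.762%. In PDAT they were 2.98%, 2.80% and 2.54%, then 1.53%, 1.13% and 1.11%, then 0.670%, 0.814% and 0.677%. Every library of 11-12 days lay below every library of the younger ages, and the CL37 and PDAT ages did not overlap. The fae1 mean was 3.02% ± 1.45 at 7-8 days and 2.05% ± 1.46 at 9-10 days, and 3.83% and 1.21% without the A libraries.

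In the oldest seeds the ACP5 share was lower and the ACP3 share higher than at the younger ages. The ACP5 share was 18.0% to 25.7% at 7-8 days, 20.5% to 23.0% at 9-10 days and 13.6% to 17.5% at 11-12 days, with no overlap between the last age and the earlier ones. The ACP3 share was 10.2% to 11.6%, 10.3% to 12.1% and 13.1% to 15.6%, again with no overlap at 11-12 days. Group means of ACP5 went from 24.1% ± 2.12 to 15.9% ± 1.45 in fae1, from 21.7% ± 0.634 to 16.0% ± 0.480 in CL37 and from 18.9% ± 1.43 to 16.0% ± 2.09 in PDAT. At 7-8 days every PDAT share of ACP5 (18.2%, 18.0% and 20.6%) was below every fae1 share (21.7%, 24.9% and 25.7%) and below every CL37 share (21.0%, 22.2% and 21.8%). By 11-12 days the lines overlapped. These shares are descriptions and were not tested.

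The ACP5 share depends on the gene length used. RefSeq gives ACP5 an exon length of 644 bases with no annotated 5′ untranslated region, while the locus in the authors' table ends earlier and holds 420 exon bases. With that shorter length the mean ACP5 share was 31.0%, 28.7% and 21.3% in fae1 at the 3 ages, 28.1%, 28.2% and 21.4% in CL37, and 24.9%, 28.7% and 21.4% in PDAT. ACP5 then ranked first in fae1 at 7-8 days and second in 4 other groups. From the authors' pooled FPKM, its share at 7-8 and 9-10 days was 36.8% and 35.0% in fae1, 34.0% and 34.2% in CL37, and 30.5% and 34.7% in PDAT, the largest plastid share in all 6 of these groups. Its place among the leading isoforms rests on this choice, whereas the mean was lower at 11-12 than at 7-8 days with each of these lengths and with the FPKM.

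**Figure D2:**
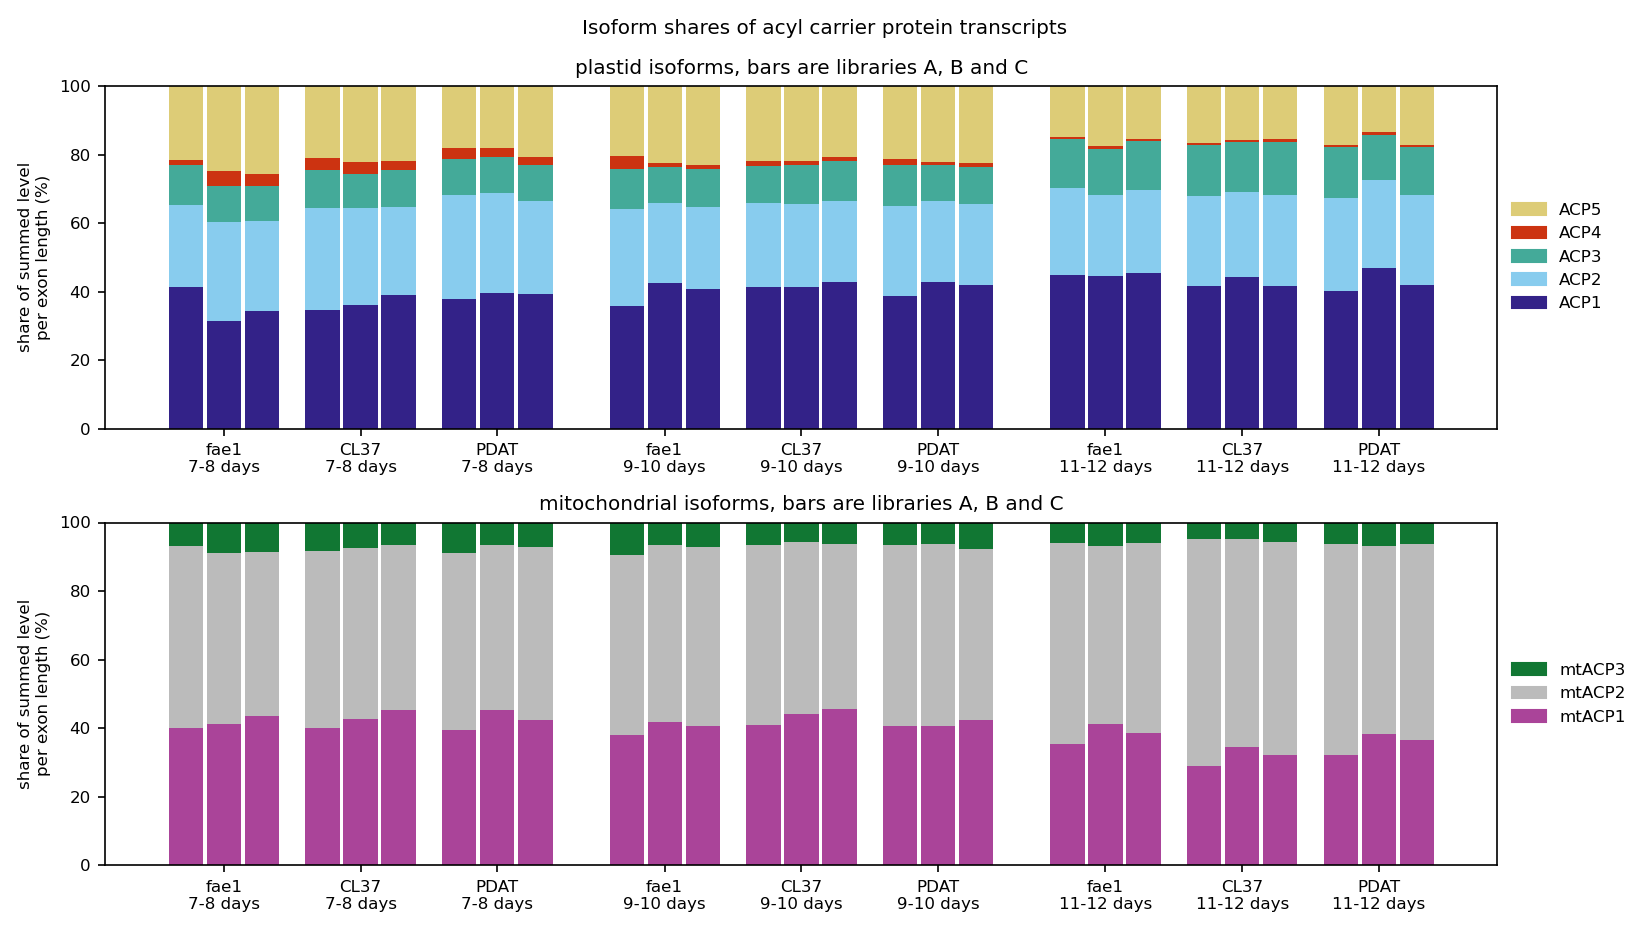
Share of each isoform (percent of the family's counts per exon length) in each of the 27 libraries, as stacked bars for the plastid and mitochondrial families, ordered by line, age and replicate. ACP1 and ACP2 fill most of the plastid bars, and the ACP5 band narrows while the ACP3 band widens at 11-12 days.

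Among the mitochondrial isoforms mtACP2 led, mtACP1 came second and mtACP3 was minor. The mtACP2 share was 48.0% to 53.1% at 7-8 days, 48.4% to 53.2% at 9-10 days and 52.2% to 66.3% at 11-12 days. In CL37 at 11-12 days it was 66.3%, 61.0% and 62.2% (A, B, C), all above the fae1 values of 58.8%, 52.2% and 55.3% at that age. The PDAT values of 61.8%, 54.8% and 57.1% overlapped those of both lines. The mtACP1 share was 39.4% to 45.4%, 37.8% to 45.4% and 28.8% to 41.1% at the 3 ages, the lowest value being that of A of CL37 at 11-12 days. The mtACP3 share stayed between 4.71% and 9.46% in all libraries.

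The change with age was tested in each line with edgeR's quasi-likelihood test over all 18897 genes, with Benjamini-Hochberg adjustment and a call at an adjusted p below 0.05. ACP4 fell in every line between 7-8 and 11-12 days. In fae1 its level was 40.5, 125 and 117 CPM at 7-8 days, 99.1, 40.2 and 42.6 CPM at 9-10 days, and 18.1, 19.3 and 17.8 CPM at 11-12 days. In CL37 it was 94.0, 84.5 and 80.4 CPM, then 38.1, 35.8 and 35.0 CPM, then 15.0, 11.8 and 17.6 CPM. In PDAT it was 66.8, 63.3 and 63.3 CPM, then 34.5, 36.0 and 33.7 CPM, then 19.1, 18.7 and 18.3 CPM. The oldest seeds were lowest in every line with no overlap, and at 7-8 days PDAT lay below CL37 in every replicate.

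ACP4 was 5.10-fold lower at 11-12 than at 7-8 days in fae1 (log2 difference -2.35 ± 0.31 SE, edgeR adjusted p = 9.33e-06), 5.84-fold lower in CL37 (-2.55 ± 0.32, adjusted p = 7.81e-07) and 3.45-fold lower in PDAT (-1.79 ± 0.31, adjusted p = 5.55e-05). Without the 2 A libraries the fae1 difference was -2.71 ± 0.12 (edgeR adjusted p = 2.13e-13). In CL37 the fall ran over both steps, -1.25 ± 0.31 from 7-8 to 9-10 days (edgeR adjusted p = 0.00672) and -1.30 ± 0.32 from 9-10 to 11-12 days (adjusted p = 0.00334). In PDAT the steps were -0.89 ± 0.30 (edgeR adjusted p = 0.0259) and -0.89 ± 0.31 (adjusted p = 0.0370), of which the first lost its call without A or B of 7-8 days or any library of 9-10 days (adjusted p up to 0.0773) and was -0.21 with the percentage of multiply mapped reads as a covariate (adjusted p = 0.869), and the second without any library of either age (adjusted p up to 0.101). The second PDAT step also lost its call without a filter and on unscaled library totals (edgeR adjusted p = 0.0511 and 0.0596). In fae1 the first step was -0.63 ± 0.30 (edgeR adjusted p = 0.639) and became -1.54 ± 0.14 (adjusted p = 4.19e-07) without the A libraries; the second was -1.72 ± 0.31 (adjusted p = 0.000443) and became -1.17 ± 0.12 without them (adjusted p = 8.62e-07). In whole seeds, fewer cells of a type and less ACP RNA per cell cannot be told apart.

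Markers of the seed tissues also moved with age. Summed transcripts of 4 seed coat markers were 249 to 571 CPM at 7-8 days and 95.1 to 224 CPM at 11-12 days, where TT12 had no counts. Those of 3 endosperm markers went from 6.18 to 48.7 CPM down to 0.549 to 6.23 CPM, while 4 silique wall markers summed to 3.21 to 9.53 CPM in all libraries. All 5 seed-filling markers rose in each line between 7-8 and 11-12 days, and all 3 seed coat markers that could be tested fell. Of the 2 silique wall markers that could be tested, ALC fell in all 3 lines, at -1.54 in fae1, -1.94 in CL37 and -1.66 in PDAT (edgeR adjusted p = 0.00713, 0.00147 and 0.00299). The part of these markers in the changes of the carrier genes was not tested.

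Besides ACP4, several isoforms were called lower with age in fae1 and CL37. Of the 8 genes, 5 were called lower in fae1 between 7-8 and 11-12 days and none higher, beside 50.5% of all tested genes called (26.5% lower). In CL37 the count was also 5 lower and none higher, beside 58.1% of all genes (28.6% lower). In PDAT, ACP4 was called lower and 2 genes higher, beside 53.9% of all genes (26.7% lower and 27.2% higher). The median log2 difference of the 8 genes was -0.49 in fae1, -0.47 in CL37 and 0.06 in PDAT, against medians of 0.00, 0.01 and 0.01 over all genes.

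ACP5 levels in fae1 were 345, 406 and 486 CPM at 7-8 days, 301, 405 and 461 CPM at 9-10 days, and 188, 258 and 221 CPM at 11-12 days. In CL37 they were 319, 313 and 339.5 CPM, then 370.3, 362 and 342 CPM, then 214, 181 and 199 CPM. In PDAT they were 226, 226 and 284 CPM, then 268, 389 and 379 CPM, then 269.7, 173 and 258 CPM. Only in PDAT did the youngest and oldest seeds overlap. ACP5 fell between 7-8 and 11-12 days by 0.89 ± 0.19 on the log2 scale in fae1 (edgeR adjusted p = 0.000699) and by 0.71 ± 0.19 in CL37 (adjusted p = 0.00260), and was -0.07 ± 0.19 in PDAT (adjusted p = 0.765). Its fall from 9-10 to 11-12 days was called in all 3 lines, at -0.81 ± 0.19 in fae1, -0.86 ± 0.19 in CL37 and -0.56 ± 0.19 in PDAT (edgeR adjusted p = 0.00308, 0.00144 and 0.0314), the PDAT call being lost without B or C of 9-10 days or B of 11-12 days (adjusted p up to 0.138). From 7-8 to 9-10 days PDAT gave 0.49 ± 0.19 (edgeR adjusted p = 0.0468), a rise that turned to -0.16 on unscaled library totals and was lost without A or B of 7-8 days or B or C of 9-10 days (adjusted p up to 0.165) or with the covariate of multiply mapped reads (0.29, adjusted p = 0.673). That call was also lost with DESeq2-type (RLE) factors, upper-quartile factors or no filter (edgeR adjusted p = 0.0635, 0.0776 and 0.0563).

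ACP2 and ACP3, the closely similar pair, differed in their course. ACP2 levels in fae1 were 600.3, 745 and 780.5 CPM at 7-8 days, 655, 663 and 757 CPM at 9-10 days, and 508, 551 and 548 CPM at 11-12 days. In CL37 they were 712, 626 and 637 CPM, then 647, 627 and 617 CPM, then 533, 446 and 529 CPM. In PDAT they were 592, 575 and 589 CPM, then 518, 654 and 628 CPM, then 672, 511 and 620 CPM. The oldest fae1 and CL37 seeds were below all younger seeds of their line, and PDAT ages overlapped. ACP2 fell by 0.40 ± 0.13 in fae1 (edgeR adjusted p = 0.0143) and by 0.39 ± 0.13 in CL37 (adjusted p = 0.0139) between 7-8 and 11-12 days, and was 0.04 ± 0.13 in PDAT (adjusted p = 0.828; -0.78 on unscaled library totals). The fae1 call was lost without B or C of 7-8 days or A of 11-12 days, and the CL37 call without A of 7-8 days or B of 11-12 days (adjusted p up to 0.0826 and 0.0727). With the covariate of multiply mapped reads neither was called (edgeR adjusted p = 0.0633 and 0.0927).

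ACP3 levels in fae1 were 346, 325 and 363 CPM at 7-8 days, 317, 349 and 413 CPM at 9-10 days, and 340, 373 and 386 CPM at 11-12 days. In CL37 they were 321, 268 and 310 CPM, then 347, 354 and 369 CPM, then 363, 309 and 373 CPM. In PDAT they were 247, 247 and 269 CPM, then 284, 341 and 349 CPM, then 445, 313 and 388 CPM. In PDAT all seeds of 7-8 days were below all older seeds, and in fae1 and CL37 the seeds of 7-8 and 11-12 days overlapped. ACP3 rose in PDAT by 0.59 ± 0.14 between 7-8 and 11-12 days (edgeR adjusted p = 0.000936), a direction that turned to -0.23 on unscaled library totals and a call lost with the covariate of multiply mapped reads (0.49, adjusted p = 0.0563), and was 0.09 ± 0.13 in fae1 and 0.22 ± 0.13 in CL37 (adjusted p = 0.609 and 0.175; -0.69 and -0.54 on unscaled totals).

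ACP1, the most abundant isoform by RefSeq exon length, passed the test at no step in any line. Its lowest, median and highest levels over all 27 libraries were 528, 679 and 913 CPM. The difference between 7-8 and 11-12 days was 0.05 ± 0.16 in fae1, -0.06 ± 0.16 in CL37 and 0.30 ± 0.16 in PDAT (edgeR adjusted p = 0.818, 0.786 and 0.123), and -0.71, -0.81 and -0.50 on unscaled library totals. The PDAT levels of 528, 554 and 608 CPM at 7-8 days lay below those of 708, 668 and 701 CPM at 11-12 days without overlap.

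The scaling behind these directions matters for the small differences. Scaling factors were 0.896 to 1.60 at 7-8 days and 0.658 to 0.879 at 11-12 days. Without scaling, the median of all genes moved between 7-8 and 11-12 days by -0.78 in fae1, -0.76 in CL37 and -0.80 in PDAT on the log2 scale. Calls over all genes then became 1248 higher and 11547 lower in fae1, against 4528 and 5012 with scaling. ACP4, at -3.24, -3.31 and -2.60 without scaling, stayed below that shift in all 3 lines.

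**Figure D3:**
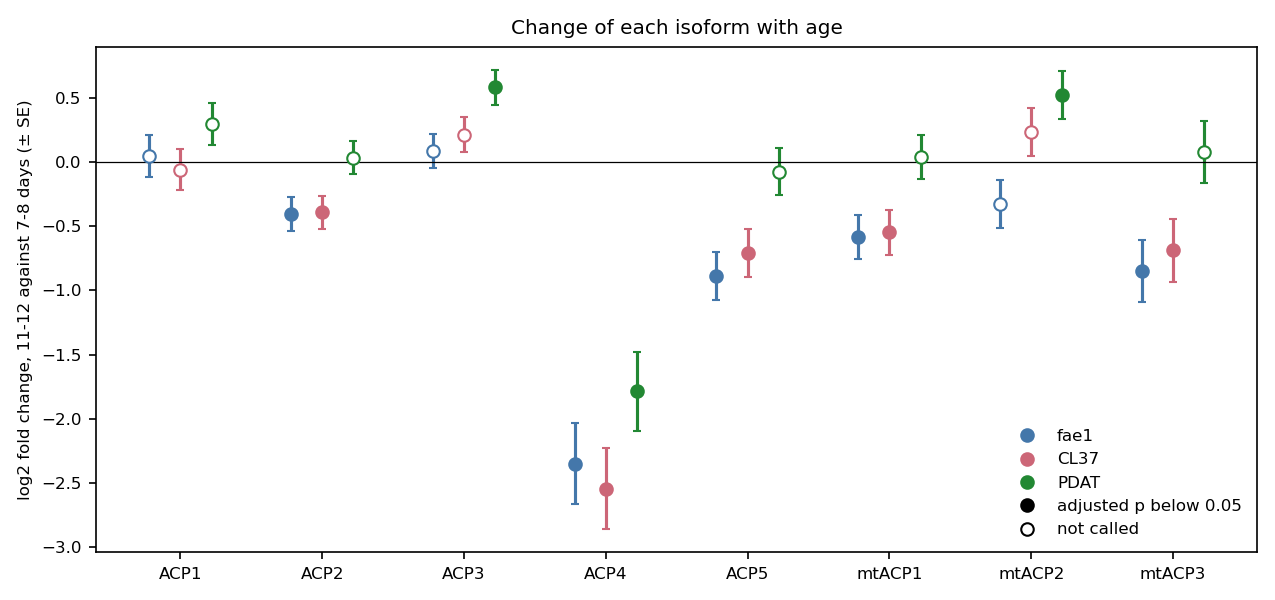
Log2 difference in level between 11-12 and 7-8 days (below 0, lower in older seeds) for each gene in fae1, CL37 and PDAT; bars are standard errors of the edgeR fit and filled symbols passed the adjusted threshold. ACP4 lies between -2.55 and -1.79, and the other values lie between -0.89 and 0.59.

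The mitochondrial genes also differed among themselves. Levels of mtACP1 in CL37 were 89.8, 91.9 and 92.2 CPM at 7-8 days, 85.8, 86.1 and 86.2 CPM at 9-10 days and 70.2, 55.9 and 61.6 CPM at 11-12 days. In fae1 they were 69.9, 101 and 118 CPM, then 85.4, 84.0 and 101 CPM, then 51.1, 75.9 and 65.6 CPM, with overlap between 7-8 and 11-12 days through library A. In PDAT they were 65.0, 72.6 and 68.3 CPM, then 58.0, 77.0 and 82.0 CPM, then 77.2, 58.4 and 76.1 CPM, with all ages overlapping. Between 7-8 and 11-12 days mtACP1 fell by 0.58 ± 0.17 in fae1 (edgeR adjusted p = 0.00795; 0.0782 without C of 7-8 days and 0.0596 without A of 11-12 days) and by 0.55 ± 0.17 in CL37 (adjusted p = 0.00953; 0.0622 with the covariate of multiply mapped reads), and was 0.04 ± 0.17 in PDAT (adjusted p = 0.860; -0.77 on unscaled library totals).

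The gene mtACP2, the leading mitochondrial isoform, went the other way in PDAT. Its levels there were 91.7, 82.4 and 86.9 CPM at 7-8 days, 80.7, 108 and 103 CPM at 9-10 days, and 159, 89.8 and 127 CPM at 11-12 days. In CL37 they were 125, 115 and 105 CPM, then 119, 104 and 98.4 CPM, then 173, 106 and 128 CPM. In fae1 they were 98.9, 132 and 140 CPM, then 128, 111 and 138 CPM, then 91.4, 103 and 101 CPM. At 11-12 days the replicates of CL37 and PDAT were spread widely, with A highest in both. In PDAT mtACP2 rose by 0.53 ± 0.19 between 7-8 and 11-12 days (edgeR adjusted p = 0.0216), a direction that turned to -0.30 on unscaled library totals and a call that was lost without B of 7-8 days or A or C of 11-12 days (adjusted p = 0.0663, 0.179 and 0.0506) or with the covariate of multiply mapped reads (adjusted p = 0.187). With upper-quartile factors the PDAT rise was 0.43 and not called (edgeR adjusted p = 0.0634). The difference was 0.24 ± 0.19 in CL37 and -0.33 ± 0.19 in fae1 (edgeR adjusted p = 0.285 and 0.149), the latter -0.46 without the 2 A libraries (adjusted p = 0.0441).

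Of the 8 genes mtACP3 was the least covered. Its levels ranged from 8.72 to 26.3 CPM over all libraries with a median of 14.2 CPM. Between 7-8 and 11-12 days it fell by 0.85 ± 0.24 in fae1 (edgeR adjusted p = 0.00672; 0.0509 without C of 7-8 days) and by 0.69 ± 0.25 in CL37 (adjusted p = 0.0201; 0.0963 without A of 7-8 days and 0.114 without B of 11-12 days). With the covariate of multiply mapped reads neither was called, at -0.57 in fae1 and -0.35 in CL37 (edgeR adjusted p = 0.105 and 0.364). In PDAT it was 0.08 ± 0.24 (edgeR adjusted p = 0.793; -0.74 on unscaled library totals).

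For the single steps, none of the 8 genes was called in fae1 from 7-8 to 9-10 days, where 0% of all genes were called by edgeR and none of the 8 by DESeq2. An unadjusted edgeR p below 0.05 was found for 1 of the 8, beside 1477 of all 18897 genes. Without the A libraries of fae1, ACP4 was called at this step, beside 2944 genes called higher and 2645 lower of 19176. From 9-10 to 11-12 days in fae1, 5 were called lower beside 33.1% of all genes (19.6% lower). They were ACP4 and ACP5 (above) with ACP2 at -0.37, mtACP1 at -0.49 and mtACP3 at -0.74 (edgeR adjusted p = 0.0353, 0.0341 and 0.0235). Each of these last calls was lost without A of 9-10 days, among other libraries. They were also lost with the covariate of multiply mapped reads (edgeR adjusted p = 0.181, 0.167 and 0.324). Without both A libraries ACP2 was -0.41, mtACP1 -0.53 and mtACP3 -0.57 (edgeR adjusted p = 0.0277, 0.0191 and 0.0625). In CL37, only ACP4 was called at the first step (25.8% of all genes; 12.6% lower) and 3 genes at the second (31.2%; 15% lower), the third being mtACP1 at -0.46 ± 0.17 (adjusted p = 0.0465), a call lost without any library of these ages other than A of 11-12 days (adjusted p up to 0.146). DESeq2 did not call mtACP1 there (DESeq2 adjusted p = 0.0523). Its edgeR call was also lost with DESeq2-type (RLE) factors, no filter or the covariate (edgeR adjusted p = 0.0627, 0.0600 and 0.102). In PDAT, 3 genes were called at the first step (32.5%; 16.3% lower and 16.2% higher) and ACP4 and ACP5 at the second (23.8%; 11.6% lower); at the first, ACP3 gave 0.35 ± 0.13 (adjusted p = 0.0483), which turned to -0.30 on unscaled library totals and was lost without any library of these ages other than A of 9-10 days (adjusted p up to 0.163). RLE factors, upper-quartile factors, no filter and the covariate also removed the ACP3 call (edgeR adjusted p = 0.0699, 0.0916, 0.0796 and 0.586).

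None of the 8 genes was called between the hydroxylase line CL37 and fae1 at any age by edgeR. At 7-8 days 0.0265% of all genes were called, and the 8 genes lay between -0.35 and -0.08. At 9-10 days 0.741% of all genes were called, and ACP4 was lowest at -0.74 ± 0.30 (edgeR adjusted p = 0.309), a value that became -0.19 ± 0.13 without the A libraries of fae1 (adjusted p = 0.911). At 11-12 days 15.6% of all genes were called, and mtACP2 was highest at 0.46 ± 0.19 (95% interval 0.09 to 0.83, edgeR adjusted p = 0.102). The numbers with an unadjusted p below 0.05 were 0, 1 and 1 at the 3 ages, beside 1426, 2411 and 5634 of all 18897 genes. DESeq2 called none of the 8. Over the mean of the ages none was called either, beside 7.08% of all genes, although ACP4 was called lower in CL37 without the A libraries of fae1 (-0.33 ± 0.07, edgeR adjusted p = 0.00306).

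The PDAT line differed from fae1 at 7-8 days. All 8 genes had lower levels in PDAT, from -0.75 to -0.27 on the log2 scale, and 2 were called lower beside 8.64% of all genes (3.87% lower). ACP5 was 226, 226 and 284 CPM in PDAT against 345, 406 and 486 CPM in fae1, a difference of -0.75 ± 0.19 (edgeR adjusted p = 0.0200). ACP3 was 247, 247 and 269 CPM against 346, 325 and 363 CPM, a difference of -0.44 ± 0.14 (edgeR adjusted p = 0.0463). Neither pair of groups overlapped. Both calls were lost without scaling, where the ACP5 difference was -0.53 and that of ACP3 -0.18 (edgeR adjusted p = 0.119 and 0.505), ACP1 stood at 0.00, and all genes shifted by 0.22 in their median with 2523 called higher and 142 lower. ACP3 also lost its call without any 1 library of the pair other than A of fae1, and ACP5 without C of fae1 or A or B of PDAT (edgeR adjusted p up to 0.127 and 0.0791).

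The count depended on the A library of fae1. Without the A libraries of fae1, 7 of the 8 genes were called lower in PDAT at 7-8 days, beside 2311 genes called higher and 1972 lower of 19176. ACP4 was then -0.91 ± 0.12 (edgeR adjusted p = 0.000133), ACP5 -0.86 ± 0.18 (adjusted p = 0.00227) and mtACP3 -0.88 ± 0.21 (adjusted p = 0.00626), while ACP1 at -0.21 ± 0.15 was not called (adjusted p = 0.349). Reads mapped to more than 1 place were 16.6% to 19.4% of the totals in the PDAT libraries of 7-8 days and 6.28% to 11.4% in those of fae1. With that percentage in the fit, none of the 8 genes was called, and 15 genes were called higher and 16 lower over all. The ACP5 difference was then -0.56 ± 0.25 and that of ACP4 -1.10 ± 0.35 (edgeR adjusted p = 0.253 and 0.138).

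At the later ages no carrier gene was called between PDAT and fae1 by edgeR, beside 0.09% of all genes called at 9-10 days and 6.61% at 11-12 days. The differences lay between -0.81 and -0.11 at 9-10 days and between -0.02 and 0.35 at 11-12 days. Of the 8 genes, 2 and 0 had an unadjusted p below 0.05, beside 2441 and 4561 of all 18897 genes. At 9-10 days ACP4 was -0.25 and all 8 genes lay between -0.38 and -0.23 without the A libraries of fae1. The mean over ages gave no call, beside 5.86% of all genes. Adding the acyltransferase to CL37 was compared by PDAT against CL37, which gave no call at any age beside 0.0106%, 0.0212% and 2.65% of all genes. At 7-8 days the 8 differences between PDAT and CL37 lay between -0.42 and -0.12. Of these, 3 had an unadjusted p below 0.05, beside 2148 of all 18897 genes. The lowest p was that of mtACP1 at -0.41 ± 0.17 (95% interval -0.75 to -0.08, edgeR adjusted p = 0.363). At 11-12 days they lay between -0.11 and 0.37. The comparisons of lines share libraries and are not independent of each other.

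**Figure D4:**
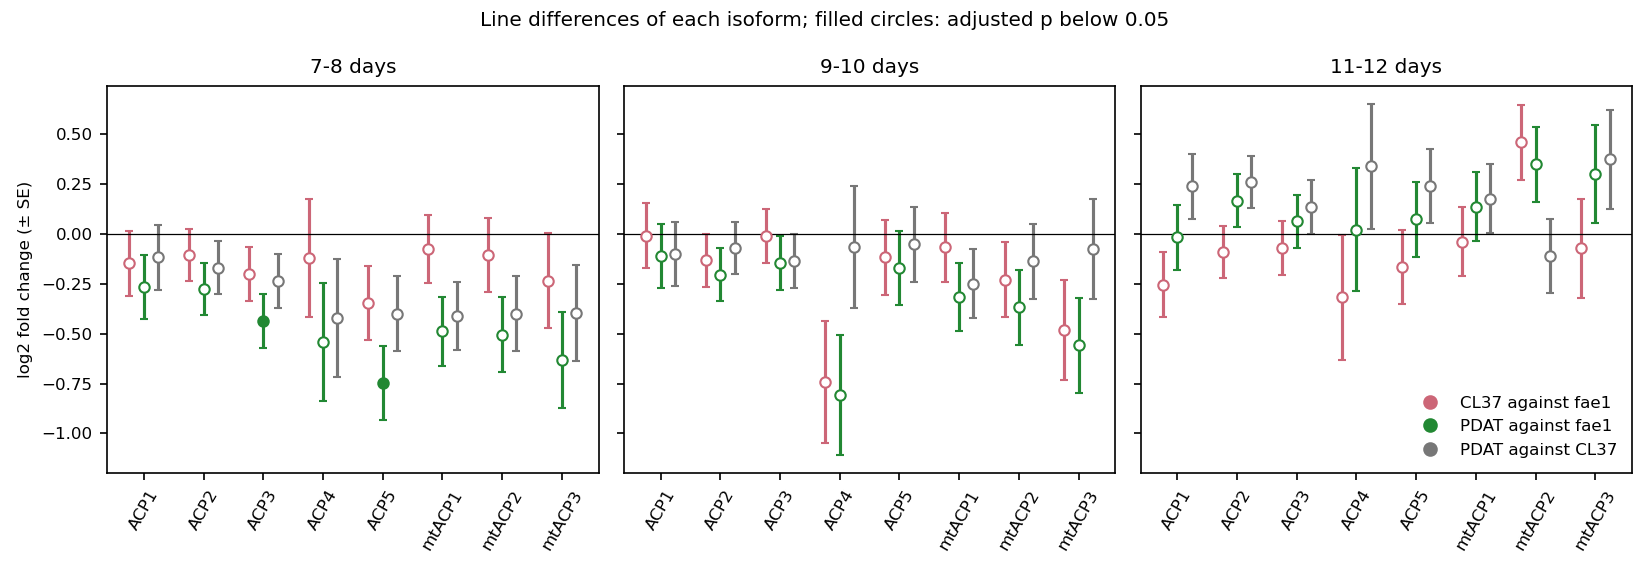
Log2 difference in level between lines (CL37 minus fae1, PDAT minus fae1, PDAT minus CL37) for each gene in panels for 7-8, 9-10 and 11-12 days; bars are standard errors of the edgeR fit and filled symbols passed the adjusted threshold. At 7-8 days all PDAT minus fae1 values lie between -0.75 and -0.27, with ACP3 and ACP5 called.

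Whether the change with age differed between lines was tested as an interaction of line and age. For PDAT against fae1, all 8 estimates were positive, from 0.25 to 0.93, so older PDAT seeds stood higher relative to fae1 than younger ones. None was called, beside 7.64% of all genes. An unadjusted edgeR p below 0.05 was found for 6 of the 8, beside 5208 of all 18897 genes. The smallest adjusted values belonged to mtACP2 (0.85 ± 0.27, edgeR adjusted p = 0.0501), ACP5 (0.82 ± 0.26, adjusted p = 0.0558) and mtACP3 (0.93 ± 0.34, adjusted p = 0.0859). Without the A libraries of fae1, 6 were called, beside 2662 genes called higher and 2658 lower of 19176. The falls of ACP2, ACP5, mtACP1 and mtACP3 that were called in fae1 and not in PDAT were therefore not shown to differ between the lines with all libraries in the fit. CL37 against fae1 (6.56% of all genes called) and PDAT against CL37 (0.704%) gave no called interaction; for mtACP2 in CL37 against fae1 the estimate was 0.57 ± 0.27 (edgeR adjusted p = 0.214).

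The fatty acid synthase that loads the plastid carriers was followed through 8 genes. In CL37 between 7-8 and 11-12 days, 7 of the 8 fell and none rose, beside 58.1% of all genes called (28.6% lower), with a median log2 difference of -0.74 against 0.01 over all genes. The hydroxyacyl-ACP dehydratase gene AT5G10160 fell by 1.23 ± 0.14, the second dehydratase gene AT2G22230 by 0.88 ± 0.17, EMB3147 (malonyl-CoA:ACP malonyltransferase) by 0.78 ± 0.13 and MOD1 (enoyl-ACP reductase) by 0.70 ± 0.13 (edgeR adjusted p = 2.32e-07, 9.7e-05, 2.47e-05 and 6.97e-05). In fae1 5 of these 8 genes fell (26.5% of all genes called lower) and in PDAT 4 (26.7%), and none rose. Of the carriers, ACP1 alone was called in no line between these ages.

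Enzymes that draw on loaded plastid carriers were mixed in CL37 over the same ages, where 58.1% of all genes were called and 28.6% were lower. Of 7 acyl-ACP desaturase genes, 3 rose and 1 fell, SSI2 (stearoyl-ACP desaturase) rising by 0.83 ± 0.22, AT5G16240 by 1.10 ± 0.27 and AT3G02620 by 0.89 ± 0.35, while AT5G16230 fell by 0.56 ± 0.24 (edgeR adjusted p = 0.00237, 0.00140, 0.0314 and 0.0473). Of 3 thioesterase genes, AT4G13050, an oleoyl-ACP thioesterase, fell by 0.86 ± 0.12 (edgeR adjusted p = 2.05e-06) and none rose. In fae1 and PDAT, beside 50.5% and 53.9% of all genes called, AT4G13050 also fell (-0.42 and -0.46), while FaTA, another oleoyl-ACP thioesterase, rose by 0.59 and 0.70 (edgeR adjusted p = 0.0103 and 0.00246). FATB, which prefers saturated chains, rose by 0.45 in fae1 (edgeR adjusted p = 0.0125). Of the desaturases, 4 rose and 1 fell in fae1, and 3 rose and none fell in PDAT. Of 4 genes for plastid acyltransferases and acyl-ACP synthetases, ATS2 fell by 0.82 ± 0.15 and ATS1 by 0.39 ± 0.14 (edgeR adjusted p = 8.75e-05 and 0.0207). Of 3 genes for plastid lipoate synthesis, the octanoyltransferase gene AT4G31050 fell by 1.20 ± 0.34 (edgeR adjusted p = 0.00428). Neither of 2 genes for carrier maturation was called.

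Genes around the mitochondrial carriers were mixed in CL37 over these ages, again beside 58.1% of all genes called and 28.6% lower. Of 5 genes for mitochondrial fatty acid and lipoate synthesis, the enoyl reductase gene AT3G45770 rose by 0.44 ± 0.12 (edgeR adjusted p = 0.00312). Of 9 lipoylated mitochondrial proteins, 2 rose and 3 fell, the glycine decarboxylase H-protein genes AT1G32470 and GDCH falling by 1.51 ± 0.20 and 1.27 ± 0.23 and BCE2 by 0.48 ± 0.14, while the H-protein gene AT2G35120 rose by 0.53 ± 0.17 (edgeR adjusted p = 1.67e-06, 5.39e-05, 0.00433 and 0.0106). Of 4 genes for LYR proteins and the cysteine desulfurase, NFS1 (the desulfurase) rose by 1.21 ± 0.14 and the complex I subunit gene CIB22 and AT3G12260 fell by 0.50 ± 0.14 and 0.47 ± 0.19 (edgeR adjusted p = 2.62e-07, 0.00326 and 0.0397).

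Although no carrier gene was called between CL37 and fae1 at 11-12 days, some of their partners were, beside 15.6% of all genes. Of all 18897 genes, 1990 were called higher and 952 lower in CL37. Of the 8 synthase genes 3 were lower in CL37 and none higher, FAB1 (ketoacyl-ACP synthase II) at -0.59 ± 0.16, EMB3147 at -0.45 ± 0.13 and KAS III at -0.43 ± 0.13 (edgeR adjusted p = 0.0150, 0.0201 and 0.0240). The thioesterase gene AT4G13050 was at -0.50 ± 0.12 and the plastid lipoyl synthase gene AT5G08415 at -0.46 ± 0.14 (edgeR adjusted p = 0.00446 and 0.0274). On the mitochondrial side AT4G26910, an acyltransferase subunit of oxoglutarate dehydrogenase, was at 0.50 ± 0.13, NFS1 at 0.44 ± 0.14, and the pyruvate dehydrogenase acetyltransferase gene AT1G54220 at -0.53 ± 0.18 (edgeR adjusted p = 0.0112, 0.0330 and 0.0438).

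Across the 27 libraries, which fall into groups by age, ACP2 ran closest to mtACP1 among the 8 genes (Pearson r = 0.907), then to mtACP3 (0.879) and ACP5 (0.868), and least with ACP3 (0.244). ACP3 and ACP4 ran in opposite directions (r = -0.455). Among 13554 genes, those most like ACP4 were emb2394 (r = 0.994) and AT4G17560 (0.993), annotated as ribosomal protein L6 and L19 family genes, and the histone gene AT5G10390 (0.990). For ACP5 they were CP12-1 (0.939), AT1G14210 (0.933) and PCB2 (0.916), and for ACP1 AT3G07200, GLB1 and SK2 (0.882 to 0.885). For mtACP2 they were AT3G23325 (0.959), DSS1(I) (0.947) and AT1G72020 (0.933). For mtACP3 they were AT2G40205, AT5G02610 and NDPK1, each at 0.941. ACP2 was nearest to SPT42 (0.921), ACP3 to AT1G18060 (0.926) and mtACP1 to AT1G77350 (0.910). These values describe shared libraries and ages, with no test.

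In the 250 bases before each annotated start, both strands were searched for the AW-box CNTNGNNNNNNNCG, bound by the seed oil regulator WRINKLED1, the G-box CACGTG and the seed RY element CATGCA. ACP5 alone of the 8 held an AW-box, CCTTGAACAATCCG, 38 to 25 bases before its start on chr5, a motif found in 9.29% of 27437 promoters of that length. Since no 5′ untranslated region is annotated for ACP5, its start is the start codon. The windows of the other genes ended at the transcript start, so their 70 to 258 bases of 5′ untranslated region were not searched. The AW-box of ACP5 alone is thus a comparison of unlike windows. ACP1 alone held a G-box, 121 to 116 bases before its start (6.49% of promoters), and none of the 8 held the RY element (8.43%). A match describes the letters in the window and not a site in use.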

How the data were processed

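Seed RNA was sequenced from Illumina TruSeq mRNA libraries. Per the submitters' processing notes, the build was TAIR10 and the tools were Cufflinks 2.0.1, HTSeq 0.5.4p3, Trimmomatic 0.22, bcl2fastq 1.8.2 and TopHat2 2.0.3; settings and strand use are not given in the sources used here. The authors deposited raw read counts per gene and library, and a table of FPKM with 1 pooled value per line and age, used only as an alternative for shares. The 5 summary lines of each count file (4.68% to 20.5% of its total) were left out.

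All 27 libraries were fitted in 1 model of 9 groups with edgeR 4.0.16 (limma 3.58.1, R 4.3.3; TMM factors, filterByExpr, robust quasi-likelihood fit; common coefficient of variation 0.209), tested on simulated data. Benjamini-Hochberg adjustment ran over all 18897 genes tested. SE is the log2 difference over the root of F. Levels are TMM-scaled CPM. Shares and CPM per kilobase used RefSeq TAIR10.1 exon lengths; 32809 of 32810 nuclear genes overlapped the authors' loci. Likeness is Pearson's r of log2 CPM (prior count 2). Replicates are separate seed samples per the labels; counts of replicates differed by more than sampling noise, with a chi-square of 2.75 to 236 times its degrees of freedom. Deviations of same-letter replicates correlated above 0.1 for all 3 letters in 2 pairs of groups, CL37 with PDAT at 7-8 days (0.107 to 0.315) and fae1 with PDAT at 9-10 days (0.132 to 0.263), where the replicate block also called 0 of the 8 genes; the labels give no meaning to the letters. Alternatives were other scalings, no filter, DESeq2 1.42.0, the percentage of multiply mapped reads as covariate, each library left out, the replicate block, ACP2 and ACP3 summed and, for shares, other lengths. Leaving out the A libraries of fae1 and both C libraries of the 11-12 day fae1 and CL37 seeds was chosen from earlier results; unscaled library totals and the length inside the authors' locus were added after seeing the data. The 8 genes, the pathway and marker lists and the tests were chosen with earlier results of these data known. The text names all 8 genes, up to 4 called genes per pathway list by smallest p, and up to 3 genes most like each.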

Additional observations from a re-analysis of the deposited data

How the results depend on the processing

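ACP4 kept its call between 7-8 and 11-12 days under every alternative run, over -3.24 to -1.91 in fae1, -3.31 to -2.05 in CL37 and -2.60 to -1.13 in PDAT. Of 631 values of single genes under alternatives, 514 stayed called or stayed uncalled, 101 lost the call, 5 gained one and 11 reversed. A reversal here is a change of sign where the main fit or the alternative gave a call. Uncalled values near 0 that changed sign count among the 514. An example is ACP1 in fae1 between 7-8 and 11-12 days, 0.05 in the main fit and down to -0.06 with a library left out. All 11 reversals came with unscaled library totals, where all genes shifted down with age: between 7-8 and 11-12 days ACP1 -0.71 and ACP3 -0.69 in fae1, ACP3 -0.54 in CL37, and ACP1 -0.50, ACP2 -0.78, ACP3 -0.23, mtACP1 -0.77, mtACP2 -0.30 and mtACP3 -0.74 in PDAT; from 7-8 to 9-10 days in PDAT, ACP3 -0.30 and ACP5 -0.16.

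Numbers of the 8 genes called moved as follows, the cause not being tested. On unscaled totals, 8 (from 5) were called in fae1 from 7-8 to 11-12 and from 9-10 to 11-12 days. All genes gave 1248 higher and 11547 lower calls there, then 668 and 9104, of 18897. The CL37 steps had 5 (from 1) and 5 (from 3), beside 1079 higher and 8215 lower, then 1678 and 4101. PDAT had 6 (from 3) from 7-8 to 11-12 days, beside 1803 higher and 11918 lower. From 9-10 to 11-12 days PDAT had 1 (from 2), beside 1258 and 2583. PDAT against fae1 at 7-8 days had 0 (from 2), beside 2523 and 142. With the percentage of multiply mapped reads as covariate, fae1 had 3 from 7-8 to 11-12 days (2849 higher and 3266 lower over all genes). CL37 had 2 (3924 and 3676) and PDAT 1 (2714 and 2642) between these ages. In fae1 from 9-10 to 11-12 days 2 were called (397 and 1127). PDAT from 7-8 to 9-10 days had 0 (110 and 59). PDAT against fae1 had 0 at 7-8 days (15 and 16) and 1 over the mean of ages (414 and 249). Without the A libraries of fae1, fae1 from 7-8 to 9-10 days had 1 (2944 higher and 2645 lower over all 19176 genes). CL37 from 9-10 to 11-12 days had 5 (3729 and 3363). CL37 against fae1 over ages had 1 (1259 and 426), and the interaction of PDAT against CL37 had 1 (82 and 299). PDAT against fae1 had 7 at 7-8 days (2311 and 1972), 3 over ages (1001 and 737) and 6 for the interaction (2662 and 2658). Without C of both fae1 and CL37 in the oldest seeds, fae1 from 9-10 to 11-12 days had 2, PDAT from 7-8 to 9-10 days 1 and PDAT against fae1 at 7-8 days 1. PDAT from 7-8 to 9-10 days had 1 with upper-quartile or DESeq2-type (RLE) factors or no filter, where PDAT from 9-10 to 11-12 days and PDAT against fae1 at 7-8 days also had 1; upper-quartile factors gave 5 in CL37 from 9-10 to 11-12 days. With ACP2 and ACP3 summed, PDAT against fae1 at 7-8 days had 1. All genes gave 2786 higher and 3401 lower for PDAT from 7-8 to 9-10 days with upper-quartile factors, and 2874 and 3272 with RLE factors. CL37 from 9-10 to 11-12 days gave 2473 and 3466 with upper-quartile factors. Counts over all genes are not given here for the fits without C libraries, without a filter or with ACP2 and ACP3 summed.

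With libraries left out in turn, the number called ranged from 2 to 6 in fae1 from 7-8 to 11-12 days, 0 to 1 and 2 to 5 at its steps, 3 to 5 in CL37 from 7-8 to 11-12 days, 2 to 3 in CL37 from 9-10 to 11-12 days, 2 to 3 in PDAT from 7-8 to 11-12 days, and 0 to 3 and 0 to 1 at its steps. It ranged from 0 to 1 for CL37 against fae1 at 11-12 days and over ages, and for PDAT against fae1 from 0 to 7 at 7-8 days, 0 to 3 over ages and 0 to 6 for the interaction. The 7, 3 and 6 came without A of fae1 at 7-8 days; the fae1 low of 2 came without C of 7-8 days, the 1 of CL37 against fae1 at 11-12 days without B of CL37, and 5 interactions of PDAT against fae1 were called without B of PDAT at 11-12 days. How many of all genes were called with a library left out in turn is not given here, so these ranges stand without a background. DESeq2 called 2 for the interaction of PDAT against fae1, beside 1275 genes higher and 1028 lower of 18897. The replicate block (letters A to C) called 1 there, beside 885 genes higher and 554 lower, and moved no other count by over 1.5 times. In most comparisons the letters did not pair the samples, since 34 of 108 same-letter pairs of groups had deviations correlated above 0.1 (median 0.033).

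The ACP4 share moved by more than its spread with other lengths. From raw counts it was 1.001% in fae1 at 11-12 days, 4.37%, 1.68% and 0.891% in CL37 and 3.77%, 1.74% and 0.978% in PDAT at the 3 ages. With coding length these were 0.937%, 4.08%, 1.57%, 0.836%, 3.52%, 1.63% and 0.915%. With the length inside the authors' locus it was 0.816% in fae1 at 11-12 days, 1.31% in CL37 at 9-10 days and 3.02% in PDAT at 7-8 days. From the authors' pooled FPKM it was 0.934% in fae1 at 11-12 days, 3.78%, 1.43% and 0.794% in CL37, and 3.33% and 0.877% in PDAT at 7-8 and 11-12 days. Each series still went down with age. Depth limits mtACP3 and late ACP4 most, with as few as 50 and 100 reads in a library.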
